A study of Caenorhabditis elegans with 4 samples.

Results

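The REC-8 peaks of chromosome IV are the 1200 rows of the series-wide peak list whose chromosome is IV, out of 7834 rows in all and 7831 on the 6 nuclear chromosomes. They were chosen by chromosome alone. By the midpoint of each peak they fall into 273 on the left arm (midpoint below 3896000), 263 on the right arm (above 12970000) and 664 in the centre between these limits, in coordinates of WormBase WS220. The ChIP samples (replicates 1 and 2) and the input samples (replicates 1 and 2) come from the Caenorhabditis elegans strain fem-2(b245), labelled as hermaphrodites and as young adults that contain a germline, while the growth protocol speaks of gravid adults. All 4 samples share the genotype fem-2(b245)III and a temperature of 20 °C, and the design has no wild type and no untreated worms. Chromatin fixed with EGS and formaldehyde was precipitated with a rabbit antibody to REC-8 and sequenced. It came from whole worms, so soma and germline were not separated, and nothing in the labels tells separate cultures from repeats on shared material. Each ChIP sample has a peak list of its own, with 360 of 2001 peaks on chromosome IV in replicate 1 and 816 of 5347 in replicate 2.

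REC-8 is one of the meiotic kleisins of this worm, beside COH-3 and COH-4, and kleisins are the subunits that close the cohesin ring. Cohesin holds sister chromatids together, and in meiosis it is part of the axis on which homologous chromosomes pair, recombine and are later separated. The autosomes of this worm are holocentric and have a centre rich in genes and poor in crossovers, between arms that hold more repeats and take most crossovers. Chromosome IV also carries most of the piRNA (21U-RNA) genes of this species, which are expressed in the germline and lie in a pair of broad domains, one in the left part of the centre and the other on the right arm. No genome or annotation of the peaks' build was used, so sites are given by position, with neither gene names nor sequence.

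Chromosome IV carried a middling to low density of REC-8 peaks. It had 68.6 peaks per Mb in the series-wide list (1200 peaks over 17.5 Mb, exact 95% Poisson interval 64.8 to 72.6), against a mean of 77.6 ± 20.9 (SD, n = 4) on chromosomes I, II, III and V. Of the 5 autosomes only chromosome V, with 51.8, had fewer, and chromosome II was next above with 70.0. The difference did not pass the exact permutation test over the 5 autosomes (two-sided, p = 0.8; adjusted p = 1 over 7 tests). With 1 chromosome against 4, the smallest p this test can give is 0.2, so it can single out no chromosome. Replicate 2 gave 46.6 peaks per Mb on chromosome IV against 52.6 ± 14.6 (SD, n = 4) on the other autosomes, and replicate 1 gave 20.6 against 20.1 ± 5.44 (SD, n = 4). The replicates thus put chromosome IV on different sides of the other autosomes, in each case by less than the spread among them. All intervals here cover counting error only and treat peaks as independent.

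The left arm of chromosome IV was almost as dense as its centre. In the series-wide list the left arm had 70.1 peaks per Mb (62.0 to 78.9) and the right arm 58.1 (51.3 to 65.6), against 73.2 (67.7 to 79.0) in the centre. On a log2 scale the left arm lay at -0.06 relative to the centre (95% interval -0.27 to 0.14) and the right arm at -0.33 (-0.54 to -0.12). The interval of the left arm includes equality and that of the right arm does not. On chromosomes I, II, III and V the left arms lay at -0.26, -0.96, -0.71 and -0.46 and the right arms at -0.72, -0.19, -0.16 and -0.49. The left arm of chromosome IV was therefore the least depleted of the 5 left arms, while its right arm was in the middle of the 5. In the replicate lists chromosome I had a less depleted left arm than chromosome IV (0.033 in replicate 1 and -0.26 in replicate 2). In replicate 1 chromosome III did too (-0.031), so this order was not seen in either replicate alone. Neither difference from the other autosomes passed the exact permutation test (left arm, p = 0.4; right arm, p = 1; adjusted p = 1 for each).

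**Figure D1:**
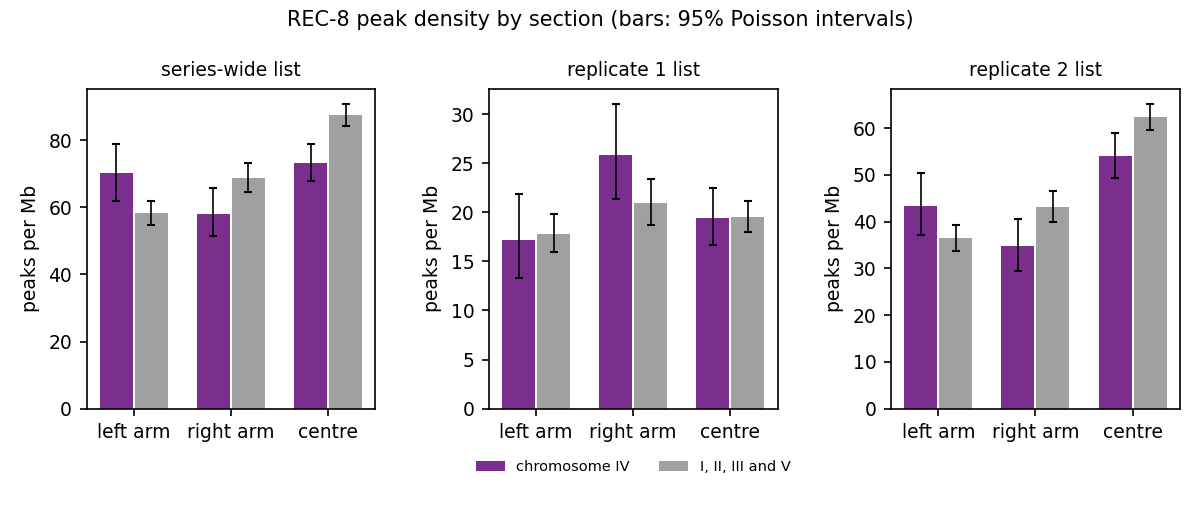
Peaks per Mb (y axis) on the left arm, the right arm and the centre of chromosome IV (purple) and of chromosomes I, II, III and V as 1 group (grey), in each peak list, with exact 95% Poisson intervals. On chromosome IV the right arm is the densest section in replicate 1 (25.9 peaks per Mb) and the sparsest in replicate 2 (34.7).

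The replicates differed in direction on the right arm. In replicate 1 the right arm held 25.9 peaks per Mb (21.4 to 31.0) and the left arm 17.2 (13.3 to 21.8), against 19.4 (16.6 to 22.5) in the centre. In replicate 2 the right arm held 34.7 (29.5 to 40.6) and the left arm 43.4 (37.1 to 50.4), against 54.0 (49.3 to 59.0) in the centre. The log2 ratio of the right arm to the centre was 0.42 in replicate 1 (0.065 to 0.76) and -0.64 in replicate 2 (-0.91 to -0.38), 2 intervals that do not overlap. Much of the replicate 1 excess lay in closely spaced peaks. With replicate 1 peaks under 1 kb apart joined, the 117 peaks of the right arm (4.52 Mb) made 80 groups. The 176 peaks of the centre (9.07 Mb) made 151 groups, so the densities of groups were close. The left arm was below the centre in both lists, at -0.17 (-0.60 to 0.24) in replicate 1 and -0.32 (-0.58 to -0.061) in replicate 2. A higher right arm ratio in replicate 1 than in replicate 2 was not limited to chromosome IV, since it was 0.41 against -0.36 on chromosome III, 0.27 against -0.35 on II, -0.28 against -0.82 on I and -0.22 against -0.82 on V. With replicate 2 reduced to its best scoring peaks, as many as replicate 1 has, the right arm ratio of chromosome IV was -0.25 (-0.67 to 0.15), so that the interval reached above 0. The peaks of the series-wide list that overlap both replicates were spread evenly, with 14.4 per Mb on the left arm and 14.8 on the right arm, against 14.8 in the centre.

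**Figure D2:**
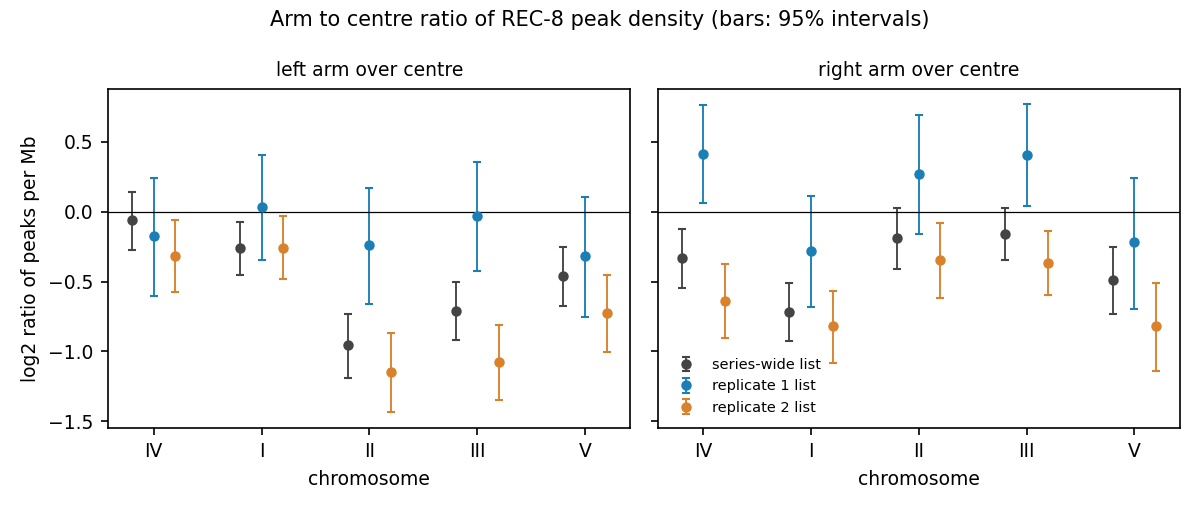
Log2 ratio of the peak density of an arm to that of the centre (y axis) for each autosome (x axis, chromosome IV first), in the series-wide list (dark grey), replicate 1 (blue) and replicate 2 (orange), with 95% intervals from the counts. For chromosome IV the right arm lies at 0.42 in replicate 1 and at -0.64 in replicate 2, while the left arm lies below 0 in each list.

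Overlap with the replicates divided the 1200 peaks unevenly. Of them 257 shared at least 1 bp with peaks of both replicates (21.4%, exact Clopper-Pearson 95% interval 19.1 to 23.8), against a background of 19.1% over all nuclear peaks. A further 555 met replicate 2 alone (46.2%, background 49.3%), 57 met replicate 1 alone (4.75%, background 4.71%) and 331 met neither (27.6%, background 26.9%). These shares are near the background. Chromosome IV had the highest share for both replicates of the 5 autosomes, 21.4% against 19.4 ± 1.03% (SD, n = 4) on the others, and the difference did not pass the exact permutation test (two-sided, p = 0.4; adjusted p = 1). Among peaks at or above the median score of each list the gap was wider, 23.7% against 18.6 ± 1.01% (SD, n = 4; exact permutation p = 0.2, the smallest possible). This cut also removed replicate peaks below the median of their own list. In replicate 1 the median score percentile was 53.9 on chromosome IV, against 47.9 ± 4.33 (SD, n = 4) on the other autosomes. The wider gap is thus not independent of the replicate 1 scores.

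Within chromosome IV the make-up differed by section. On the right arm 10.3% of the peaks met replicate 1 alone (27 peaks, 6.88 to 14.6) and on the left arm 2.56% did (7 peaks, 1.04 to 5.21), against 3.46% in the centre (23 peaks, 2.21 to 5.15). The right arm of chromosome IV was thus above its own left arm and centre beyond counting error. The other autosomes did not go one way. On chromosome I the right arm had 4.62% and the left arm 1.76%, and on chromosome V they had 9.09% and 7.78%, the same order as on chromosome IV. On chromosome II the right arm had 2.88% and the left arm 9.30%, and on chromosome III they had 4.60% and 15.2%, the opposite order. A share like that of the right arm of chromosome IV was therefore also found on single arms of II, III and V. Peaks meeting replicate 2 alone made up 40.7% of the left arm (34.8 to 46.7) and 35.0% of the right arm (29.2 to 41.1), against 53.0% of the centre (49.1 to 56.9). On the other autosomes the same shares were 39.8% and 40.2%, against 55.0% in the centre, so this pattern was shared. Peaks met by neither replicate made up 36.3% of the left arm (30.6 to 42.3) and 29.3% of the right arm (23.8 to 35.2), against 23.3% (20.2 to 26.8) of the centre. Arms above the centre were shared by the other autosomes, with 31.7% on the left arms and 33.1% on the right arms, against 23.5% in the centres, and the left arm of chromosome V had 35.8%.

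**Figure D3:**
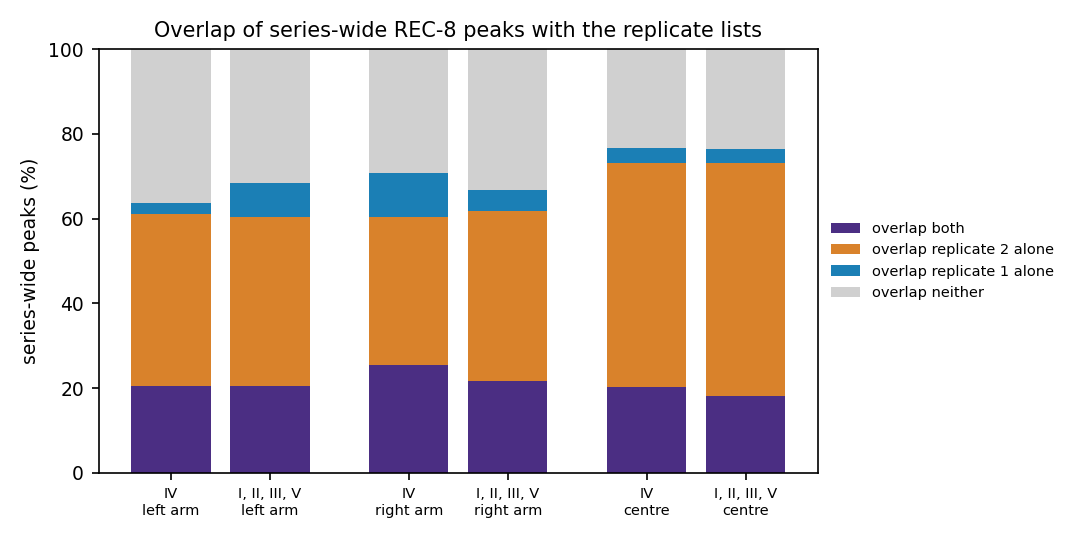
Share of series-wide peaks (y axis, percent) that overlap both replicates, replicate 2 alone, replicate 1 alone or neither, for each section of chromosome IV and of chromosomes I, II, III and V as 1 group. The blue part, replicate 1 alone, is 10.3% on the right arm of chromosome IV and 2.56% on its left arm.

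The same difference was seen from the replicate lists. Of the 360 replicate 1 peaks of chromosome IV, 265 met a replicate 2 peak (73.6%, 68.7 to 78.1; background 78.6%). By section the share was 58.1% on the right arm (48.6 to 67.2) and 85.1% on the left arm (74.3 to 92.6), against 79.5% in the centre (72.8 to 85.2). On the right arms of the other autosomes together 237 of 316 were met (69.8% to 79.7%). The single arms varied widely, however, and the right arm of chromosome V (59.3%, 45.0 to 72.4) and the left arms of III (59.8%, 48.7 to 70.1) and II (60.3%, 48.5 to 71.2) had shares like that of the right arm of chromosome IV. Of the 816 replicate 2 peaks of chromosome IV, 262 met a replicate 1 peak (32.1%, background 28.0%), with 45.9% on the right arm (37.9 to 54.0) and 33.1% on the left arm (26.1 to 40.8), against 27.3% in the centre (23.5 to 31.5). A low share in 1 direction and a high share in the other go with the many replicate 1 peaks and few replicate 2 peaks of the right arm. Series-wide peaks covered 89.4% of the replicate 1 peaks of chromosome IV (322 of 360, background 91.5%) and 95.6% of the replicate 2 peaks (780 of 816, background 94.7%).

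At sites where 1 peak of each replicate met only the other, scores were compared by rank. Scores are the authors' peak caller's values of unstated meaning and are used here only to order peaks within a list. Across the 235 such pairs of chromosome IV Spearman's rho was 0.45, against 0.54 across 894 pairs of the other autosomes. Within chromosome IV it was 0.093 across 59 pairs of the right arm and 0.47 across 55 pairs of the left arm, against 0.64 across 121 pairs of the centre. On the right arm of chromosome IV, the score order of the paired peaks was therefore hardly shared between the replicates. This covers all pairs of the arm, weak and strong, and the strong ones were not examined apart. Chromosome II also had a low value on its right arm, 0.21 across 57 pairs. These correlations are descriptions across peaks of the same 2 libraries, and peaks are not independent replicates.

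Positions agreed closely where both replicates had a peak. The midpoints of the paired peaks of chromosome IV lay a median of 39.0 bp apart, against 43.8 bp on the other autosomes. Paired peaks had a median width of 437 bp in replicate 1 and 633 bp in replicate 2.

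Widths of chromosome IV peaks were ordinary. The median was 293 bp (quartiles 209 and 423 bp), against 290 ± 16.8 bp (SD, n = 4) on the other autosomes (exact permutation test, p = 0.8; adjusted p = 1). It was 424 bp in replicate 1 and 495 bp in replicate 2, against 403 ± 18.9 bp and 504 ± 11.5 bp (SD, n = 4 each) on the other autosomes. By section the series-wide median was 282 bp on the left arm and 305 bp on the right arm, against 292 bp in the centre. Width went with overlap. Peaks that met both replicates had a median of 528 bp, those that met replicate 2 alone 294 bp, those that met replicate 1 alone 293 bp and those that met neither 202 bp. A wider peak has more bases in which to share 1 bp, so the overlap rule alone favours this order.

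Peaks of 1 kb or more numbered 41 on chromosome IV, 3.42% (2.46 to 4.61; background 3.47%). The left arm had 5 of them (1.83%, 0.597 to 4.22) and the right arm 11 (4.18%, 2.11 to 7.36), against 25 in the centre (3.77%, 2.45 to 5.51), and each interval includes the background. In replicate 2 the shares were 2.96% on the left arm (0.967 to 6.77) and 5.73% on the right arm (2.65 to 10.6), against 9.39% in the centre (6.96 to 12.3; background 8.04%). The other autosomes had the same difference in replicate 2, with 4.78% on the left arms and 5.67% on the right arms, against 9.91% in the centres. In replicate 1 the shares of chromosome IV were 7.46% and 10.3%, against 12.5% in the centre, with intervals that overlap (background 10.3%). Covered bases amounted to 2.40% of the left arm and 2.29% of the right arm, against 2.76% of the centre, in the series-wide list.

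By score rank the peaks of chromosome IV lay close to the middle, at a median percentile of 51.5, against 50.3 ± 2.90 (SD, n = 4) on the other autosomes (exact permutation test, p = 0.8; adjusted p = 1). Chromosome IV held 141 peaks of the highest score decile (11.8%, 9.98 to 13.7; background 10.0%), against 9.57% (8.76 to 10.4) on the other autosomes together. The share was 16.7% on the right arm (44 peaks, 12.4 to 21.8) and 10.3% on the left arm (28 peaks, 6.92 to 14.5), against 10.4% in the centre (69 peaks, 8.18 to 13.0). The right arm thus combined few peaks with a high share of strong ones, and its interval lay above that of the right arms of the other autosomes together, 9.54% (7.82 to 11.5). Of the single right arms that of chromosome II came nearest, with 11.9% (8.14 to 16.7), an interval that overlaps. In the replicate lists the right arm had 12.8% (7.36 to 20.3) in replicate 1 and 12.1% (7.45 to 18.3) in replicate 2, against 12.5% and 10.4% in the centre (background 10.0% in each list). The intervals of the right arm and the centre overlap in each list, in the series-wide list narrowly (12.4 to 21.8 and 8.18 to 13.0). An excess over the centre is thus uncertain in the series-wide list, and it was not detectable in either replicate alone.

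Of the 100 best peaks of the series-wide list chromosome IV held 17, where it holds 15.3% of all nuclear peaks of that list. They were 2 on the left arm and 2 on the right arm, against 13 in the centre. Chromosomes I, II, III and V held 12, 11, 8 and 6 of the best 100. In each list the best 100 and the share of all peaks include chromosome X. These shares are therefore no comparison with the other autosomes alone. In replicate 1 chromosome IV held 26 of the best 100, where it holds 18.0% of all peaks, and 9 of the 26 were on the right arm. Chromosome V held 12 of them and chromosomes I, II and III held 8, 8 and 7. Among the best 50 of replicate 1, chromosome IV and chromosome I each held 6, so the lead of chromosome IV was not seen there. In replicate 2 chromosome IV held 12 of the best 100, where it holds 15.3% of all peaks, with 1 on each arm and 10 in the centre. Chromosomes I, II, III and V held 13, 10, 4 and 5 of them. The lists differ in length, so these counts are not compared between lists.

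Sharing between replicates rose steeply with score. The series-wide and replicate lists come from the same ChIP samples, so a rise of this kind is partly built in. Of the 141 chromosome IV peaks in the highest decile 137 met both replicates (97.2%). Of the 125 in the ninth decile 74 did (59.2%), of the 114 in the eighth 32 did (28.1%), and of the 583 in the lowest 5 deciles 2 did (0.343%). This was shared by the other autosomes, where 92.1% of the highest decile, 58.2% of the ninth, 24.95% of the eighth and 1.25% of the lowest 5 met both replicates. Over all nuclear peaks the shares were 93.6%, 56.4%, 23.2% and 0.996%. In the highest decile the interval of chromosome IV (92.9 to 99.2) overlaps that of the other autosomes (89.2 to 94.3).

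The strongest site of chromosome IV was on the left arm, from 3313173 to 3313880 (708 bp), where the series-wide score of 183 ranked 9 among all nuclear peaks. It had 1 peak in each replicate, at rank 76 of 2001 in replicate 1 and 74 of 5347 in replicate 2. The remaining left arm sites named by rule were weaker. They ran from 385032 to 385829 (score 120), 1659013 to 1659481 (103), 2601782 to 2602402 (93.9) and 2316681 to 2317160 (88.3). After its first site the left arm therefore fell off quickly, with its second site only at rank 10 of chromosome IV.

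The right arm had a pair of very strong sites. One ran from 15530436 to 15530910 (475 bp, score 178, nuclear rank 18), with replicate 1 rank 139 and replicate 2 rank 102. The other ran from 16845262 to 16845821 (560 bp, score 164, nuclear rank 28), with replicate ranks 79 and 92. Sites from 17087158 to 17087862 (score 97.4), from 13884206 to 13884884 (92.2) and from 16153117 to 16153764 (84.8) followed. The last met 2 replicate 1 peaks, the better at rank 207 of 2001, and 1 replicate 2 peak at rank 1095 of 5347.

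In the centre 3 of the 5 strongest sites were neighbours. The first, from 4720392 to 4720936 (545 bp), scored 169, the next, from 4725298 to 4725867 (570 bp), scored 161, and the last, from 4727726 to 4728322 (597 bp), scored 183, at ranks 5, 7 and 2 of chromosome IV. The whole group spans 7931 bp and holds 5 series-wide peaks, each of which met both replicates. The 2 weaker members, from 4721022 to 4721590 (score 24.1) and from 4722799 to 4723174 (score 36.4), lie between the strong ones. In replicate 1 the strong members ranked 115, 100 and 75, and in replicate 2 they ranked 90, 91 and 61. The other centre sites named by rule were broader, namely one of 1234 bp from 9196111 to 9197344 with a score of 170 and one of 858 bp from 4390070 to 4390927 with a score of 155.

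The strong group lies in a bin of 1 Mb with high counts in both replicates. From 4 to 5 Mb there were 83 series-wide peaks, of which 28 met both replicates (33.7%) and 13 were of the highest decile. Replicate 1 had 34 peaks in this bin and replicate 2 had 65. Over the 17 full bins of chromosome IV these were the second highest count of replicate 1 and, level with the bin from 7 to 8 Mb, the second highest of replicate 2. The densest bin in the series-wide list (105 peaks) and for replicate 2 (83 peaks) was from 11 to 12 Mb, where replicate 1 had 26. The sparsest bin was from 16 to 17 Mb in the series-wide list (41 peaks) and from 5 to 6 Mb in replicate 1 (11 peaks).

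The bin from 15 to 16 Mb held the replicate difference in its clearest form. Replicate 1 had 38 peaks there, its highest count in any of the 80 full autosomal bins. Replicate 2 had 24, its lowest on chromosome IV, and the series-wide list had 44. Only 3 of the 80 autosomal bins had more replicate 1 than replicate 2 peaks, namely this one, 1 on chromosome II (24 against 22) and 1 on chromosome V (25 against 20). Of the 38 replicate 1 peaks here 17 met replicate 2 (44.7%, 28.6 to 61.7). The 21 others were narrow, with a median of 239 bp against 529 bp for those that met it, and had a median score percentile of 31.8 against 86.2. Of the 38 peaks 32 met a series-wide peak. The count includes 6 peaks from 15078868 to 15081957 and 4 from 15188027 to 15190939, groups of peaks under 1 kb apart. It therefore depends in part on how closely spaced peaks are split. Over the full bins of chromosome IV Spearman's rho between the counts of the replicates was 0.0098 (17 bins of the same 2 libraries, a description only).

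**Figure D4:**
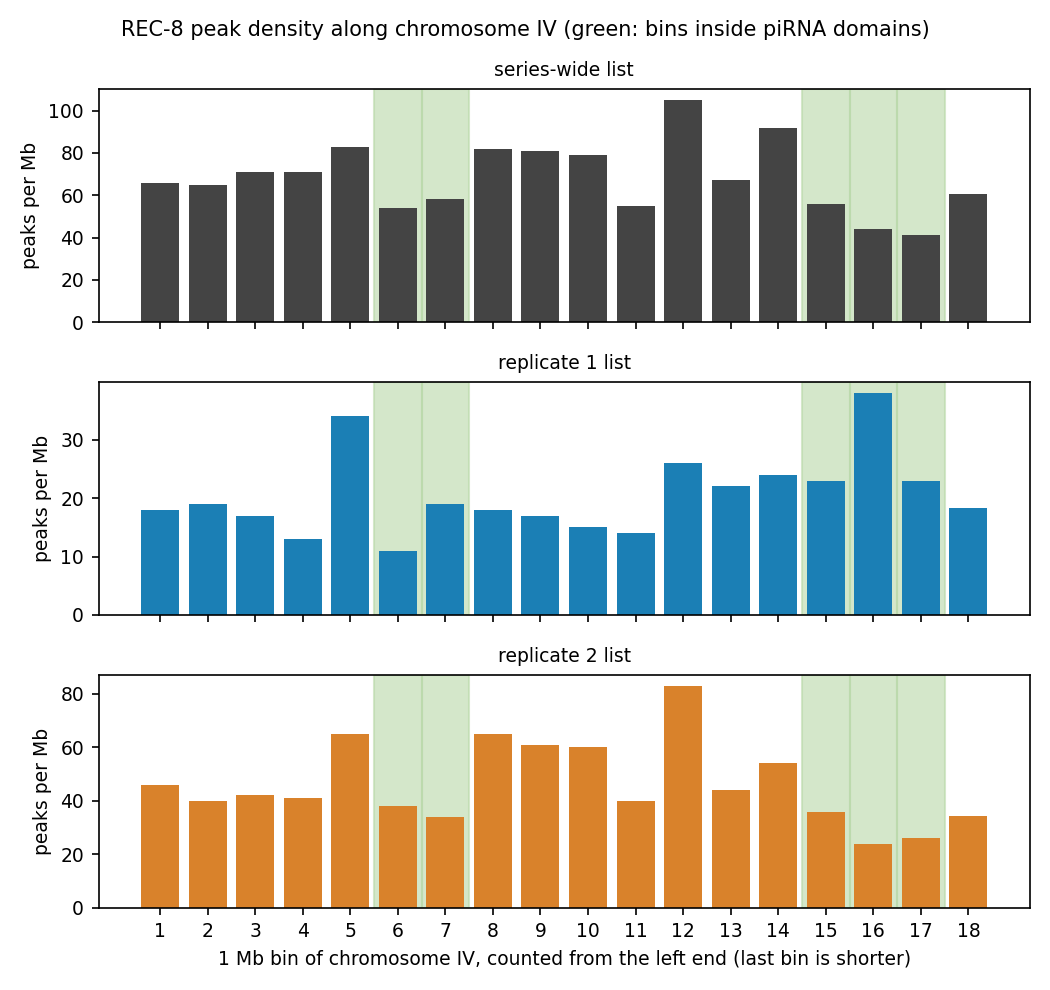
Peaks per Mb (y axis) in bins of 1 Mb of chromosome IV, numbered from the left end (x axis), in the series-wide list, replicate 1 and replicate 2. Green marks bins that lie wholly inside the piRNA domains. Bin 16, from 15 to 16 Mb, is the highest in replicate 1 (38) and the lowest in replicate 2 (24).

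Since piRNA genes are the best known peculiarity of this chromosome, bins wholly inside their domains (5 to 7 Mb and 14 to 17 Mb) were set beside the other full bins. The shorter last bin, from 17 Mb to the right end, was left out. The domain limits are general knowledge of the species and not from the files, and bins partly inside a domain count as outside. The 5 bins inside had 41 to 58 series-wide peaks (median 54), and the 12 outside had 55 to 105 (median 75). In replicate 2 the inside bins had 24 to 38 peaks (median 34) and the outside bins 40 to 83 (median 50), so that the ranges of the full bins do not overlap. The last bin, not counted as inside, had 34.4 replicate 2 peaks per Mb, within the range of the inside bins. It had 60.8 series-wide and 18.2 replicate 1 peaks per Mb. The bins beside the inside bins on the left, from 4 to 5 and from 7 to 8 Mb, had 83 and 82 series-wide peaks. The bin before the inside bins on the right, from 13 to 14 Mb, had 92. Such bordering bins may lie partly inside a domain, so the contrast depends on the limits used. In replicate 1 the inside bins had 11 to 38 (median 23) and the outside bins 13 to 34 (median 18), and the direction was the opposite. The left domain alone had 11 and 19 replicate 1 peaks per bin, the right domain 23, 38 and 23. Low counts inside the domains were thus seen in the series-wide list and in replicate 2, while replicate 1 had low counts in the left domain only, in 1 of its 2 bins. Bins of 1 chromosome share their libraries, no test was made, and the right domain lies on the right arm, so the domain and the arm cannot be told apart there.

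The right domain differed from the left in the share of peaks that met both replicates. Peaks that met both replicates made up 30.4%, 38.6% and 26.8% of the bins from 14 to 17 Mb and 13.0% and 13.8% of those from 5 to 7 Mb. The bins outside ranged from 14.8% to 33.7% (median 21.1%). In the right domain only the bin with 38.6% lay above this range, while both bins of the left domain lay below it. The left domain had 7 and 8 such peaks per bin, below each bin outside, where there were 11 to 28.

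Neighbouring peaks of chromosome IV lay a median of 5220 bp apart, against 5332 ± 917 bp (SD, n = 4) on the other autosomes (exact permutation test, p = 1; adjusted p = 1). Spacing was uneven among sections. The median was 5807 bp on the left arm and 3949 bp on the right arm, against 5540 bp in the centre. The right arm thus had the lowest density and also the shortest median spacing of the 3 sections. Distances under 1 kb made up 19.8% of the right arm's (15.2 to 25.2) and 17.6% of the left arm's (13.3 to 22.7), against 16.4% of the centre's (13.7 to 19.5), shares whose intervals overlap. In replicate 1 they made up 25.9% on the right arm (18.2 to 34.8) and 10.6% on the left arm (4.37 to 20.6), against 8.57% in the centre (4.88 to 13.7). On the right arms of the other autosomes together the replicate 1 share was 12.8% (9.32 to 17.05). The right arm of chromosome III had 19.4% (12.5 to 28.2) and its left arm 23.3% (14.8 to 33.6), intervals that overlap that of the right arm of chromosome IV.

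When replicate 1 peaks under 1 kb apart were joined, 4 groups of at least 4 peaks appeared on chromosome IV, all on the right arm, and of their 19 peaks 5 met replicate 2 (background over all replicate 1 peaks 78.6%). Such groups were not limited to chromosome IV. Chromosome III had 5 of them, 2 on each arm and 1 in the centre, and of their 40 peaks 5 met replicate 2. Chromosomes I, II and V had 2, 1 and 3 groups, in which 5 of 10, 1 of 4 and 8 of 16 peaks met replicate 2. The largest on chromosome IV ran from 15078868 to 15081957 and held 6 replicate 1 peaks, 1 of which met the single replicate 2 peak there. The next ran from 16880418 to 16882277 with 5 peaks, 1 of them met. The group from 15188027 to 15190939 began with one of the strongest replicate 1 peaks of the chromosome (1758 bp, rank 44), which met 2 replicate 2 peaks, followed by 3 weaker ones that met none.

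In the series-wide list 490 of the 1200 peaks (40.8%, 38.0 to 43.7) lay in groups of 2 or more under 1 kb apart, against 40.4% (39.1 to 41.8) on the other autosomes. The share was 46.5% on the left arm (40.5 to 52.6) and 41.4% on the right arm (35.4 to 47.7), against 38.3% in the centre (34.5 to 42.1). The largest group held 8 peaks, on the right arm from 14475945 to 14481026, and 3 groups held 6 each. Of the latter, the one on the left arm ran from 3741114 to 3746527, and those of the centre from 4467895 to 4473319 and from 8467115 to 8471713.

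The longest distances between series-wide neighbours were both on the right arm. No series-wide peak lay between 16224146 and 16401597, a free stretch of 177450 bp. Between the midpoints of its flanking peaks replicate 1 and replicate 2 had 2 peaks each. The counts for the other stretches were taken in the same way. The second ran from 13608258 to 13777516 (169257 bp free), with 2 peaks in replicate 2 and 0 in replicate 1. Replicate 2 was emptiest in nearly the same place as the first, between 16181206 and 16400700. Its 2 peaks counted there therefore lay at the right end. The longest stretches without a replicate 1 peak lay elsewhere, from 3742687 to 4049369, where replicate 2 had 13 peaks, and from 8511399 to 8794859, where it had 18. A missing peak shows only that none was called, since the depth of the libraries is unknown.

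The widest peaks of chromosome IV were all in the centre. The first ran from 9066042 to 9069026 (2985 bp, score 105) and met 1 peak in each replicate. It is among the strongest sites of both, at rank 3 in replicate 1, where its score of 3100 is shared with other peaks, and at rank 47 in replicate 2. The second ran from 12022578 to 12025400 (2823 bp, score 32.7). Replicate 1 had a peak of about the same limits there, from 12022665 to 12025456, at rank 43, while replicate 2 had 3 peaks, the best of them 377 bp wide and at rank 4037 of 5347. The third, from 11912959 to 11915642 (2684 bp, score 46.9), went the other way, with rank 48 for a single peak of 3317 bp in replicate 2, and 2 peaks in replicate 1, the better at rank 134.

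The strongest peaks that met neither replicate were weak. The first, of 243 bp from 3055910 to 3056152, had a score of 13.99 and nuclear rank 2612. The next were 199 bp from 1070434 to 1070632, scoring 13.53, and 209 bp from 12771459 to 12771667, scoring 13.02. In turn 38 replicate 1 and 36 replicate 2 peaks of chromosome IV met no series-wide peak. The strongest in replicate 1 was broad, from 12316285 to 12319439 (3155 bp, rank 506), and met no replicate 2 peak. The strongest in replicate 2 was at the left end of the chromosome, from 1 to 272 (rank 1968). It met a replicate 1 peak from 1 to 220, so both replicates had a peak at this end while the first series-wide peak began only at 81654.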

How the data were processed

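REC-8 ChIP-seq peaks were analysed from 3 lists. Per the file headers, coordinates are in WormBase WS220 and peaks come from a program named MACS in the replicate lists and MACS v2 in the series-wide list. The submitters' processing notes list BWA and ce10. Each peak has a score deposited by the authors, whose meaning is not stated; scores served only as ranks within a list. Use of the input, pooling of replicates, duplicate handling and read totals could not be learned from the labels or headers, so depth is unknown; callers or settings alone can change width and number between lists. The input samples were not analysed here.

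Chromosome extents are the last base of any deposited peak. Arm limits of chromosomes I, II, III and V are those of the published recombination map, as remembered to the nearest kb. Peaks overlapped at 1 bp or more. Chromosome IV was tested against the 4 other autosomes by an exact permutation test over the 5, with Benjamini-Hochberg adjustment over 7 tests. Intervals are exact 95% Poisson or Clopper-Pearson, and for density ratios the conditional binomial. Procedures were tested on simulated lists. Computation used SciPy 1.17.1 and pandas 2.3.3 with NumPy 2.4.6 under Python 3.11.15, and plots matplotlib 3.10.9.

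Peaks named are the 5 best of each section that overlap both replicates, the 3 widest, the 3 best that overlap neither, the longest distances, the densest and sparsest bins, and the best replicate peak without a series-wide one. The group of strong centre sites, the bin from 15 to 16 Mb, the replicate 1 groups and the other autosomes' bins were examined after their values were seen. The chromosome, its sections and all rules were chosen with earlier results of these data known.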

Additional observations from a re-analysis of the deposited data

How the results depend on the processing

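The comparisons of chromosome IV with the other autosomes were small and their direction was not stable. Differences are chromosome IV minus the mean of the other 4. For density, leaving out a replicate gave -5.91 (without replicate 1) and 0.466 peaks per Mb (without replicate 2). For the share overlapping replicates it gave -0.198 without replicate 1 and 1.97 percentage points without replicate 2, for median width -9.50 and 20.6 bp, and for median spacing 166 and -5771 bp. Among peaks at or above the median score the width difference was -8.75 bp and the spacing difference 1282 bp; with peaks under 1 kb apart merged these were -8.25 and 851 bp. The left arm difference on the log2 scale was 0.49 without replicate 1 and -0.035 without replicate 2. The right arm difference was -0.050 and 0.37, and it was -0.019 with merged peaks and -0.048 with sections of equal length. Within chromosome IV, the left arm ratio was -0.32 without replicate 1, -0.17 without replicate 2 and -0.41 with replicate 2 cut to the length of replicate 1. The right arm ratio was -0.64 and 0.42, and 0.0043 for peaks overlapping both replicates. The piRNA bins, as a log2 ratio of medians inside to outside, gave -0.47, with -0.56 without replicate 1, 0.35 without replicate 2 and -0.77 for the right domain alone. The cause of these shifts was not tested. Of 62 alternatives, 43 kept their direction and, for values without a test, stayed within the counting interval or the spread of bins. The cut replicate 2 list, the separate domains and the piRNA comparison without the densest replicate 1 bin were added after the data were seen. Score rank kept its direction throughout (3 alternatives). No exact p fell below 0.2, by construction. No paired analysis was possible because input DNA enters no comparison here. Statements on missing peaks are limited by the unknown depth.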
